A study of Mus musculus with 20 samples.

Results

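The genes described here are 32 genes of the interferon response and of antigen presentation on MHC class I, chosen by their symbols among the 24421 genes counted in each of 20 RNA-seq libraries of the mouse cerebral cortex. All 32 were found by an exact match of the symbol in every library. Of these, 22 are interferon-induced genes and their regulators, namely the signalling genes Stat2, Irf1, Irf7 and Irf9, the RNA sensors Ifih1 and Ddx58, the effectors Isg15, Ifit1, Ifit2, Ifit3, Ifi27, Ifi35, Oasl2, Mx1, Rsad2, Bst2, Usp18, Rtp4, Trim25 and Xaf1, and the GTPases Gbp2 and Gbp3. The other 10 are the peptide processing genes Psmb8, Psmb9, Psmb10, Tap1, Tap2 and Tapbp and the MHC class I genes B2m, H2-K1, H2-D1 and H2-T23.

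The neocortex and the hippocampus were taken from conditional triple knockout (cTKO) mice and from littermates serving as controls, all 3 months old, and each of the 4 groups had 5 libraries. Both genotypes carried floxed App, Aplp1 and Aplp2, the labels call them "wild type" and "APP/APLP1/APLP2 -/-", and they differed by the Camk2a-Cre transgene of the cTKO mice. This transgene is active after birth in excitatory neurons of the forebrain, so glia, vessels and other neurons of the cTKO mice kept the genes. Mice of both sexes on a mixed strain background were used. Total counts lay between 12169474 and 25331954 per library, 3 counts were worth 0.123 to 0.247 CPM, the count scaled to the library total, and the 32 genes together took between 0.0300% and 0.0448% of the counts of a library. App, Aplp1 and Aplp2 were lower in cTKO mice by 2.10, 1.92 and 1.60 on the log2 scale in the neocortex and by 1.78, 1.93 and 1.25 in the hippocampus. RNA of the neocortex was extracted with one kit and RNA of the hippocampus with another, so the region and the kit cannot be told apart in any comparison of the regions. These are bulk tissues, in which fewer cells of a type and less RNA per cell cannot be told apart.

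Interferons are cytokines that cells release when they sense viral or misplaced nucleic acids. Type I interferons act through receptors and JAK kinases on a complex that holds Stat2 and Irf9 and binds interferon-stimulated response elements (ISREs) in promoters, and the response to interferon gamma acts through gamma-activated sites (GAS) and induces Irf1. Psmb8, Psmb9 and Psmb10 replace the catalytic subunits of the constitutive proteasome, Tap1 and Tap2 carry the peptides into the endoplasmic reticulum, Tapbp bridges the transporter to the empty class I molecule, and B2m is the light chain shared by the class I heavy chains. In the healthy brain these genes are known to be low, and microglia and endothelial cells are known to be among their main sources.

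The letters of the ISRE stood in the promoters of many of these genes. The search used GAAANNGAAA on both strands (TTTCNNTTTC on the other strand) in windows from 250 bases before to 50 bases after the start of each gene in RefSeq (GRCm38.p6), in which 27 of the 32 genes had an entry. The letters were found in 12 of these 27 (44.4%), in 10 of 18 interferon genes (55.6%) and in 2 of 9 antigen presentation genes (22.2%), whereas 3.99% of the promoters of 27025 genes held them. The letters TTCNNNGAA of a GAS, which read the same on both strands, stood in 5 of 27 (18.5%) against 9.55% of all genes. Such a match is a match of letters and not a shown binding site. The promoters of 4 genes are given because they belong to the classic interferon-induced genes and to the most abundant member. ISRE letters are in capitals. Each stretch stops before the start in RefSeq or the gene in GENCODE, whichever comes first. That of Ifit1 begins only after a neighbouring gene and has 127 bases. Positions are counted from the start in RefSeq, which for Ifit1 lies past the end of the stretch shown. The promoter of B2m lies within the span of Patl2. In the promoter of Isg15, the ubiquitin-like modifier, 3 matches at -78, -72 and -66 overlap each other by 4 bases. Those of Ifit1, which encodes a protein that binds viral RNA, at -104 and -85 and of Ifit3 at -156 and -122 stand apart, and B2m has a single match at -139.

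Isg15 (chr4:156200819-156201068, minus strand): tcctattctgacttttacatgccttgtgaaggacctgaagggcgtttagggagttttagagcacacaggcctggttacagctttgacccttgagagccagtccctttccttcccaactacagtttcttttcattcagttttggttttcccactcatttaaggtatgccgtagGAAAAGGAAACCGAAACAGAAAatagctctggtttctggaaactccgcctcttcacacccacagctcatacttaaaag
Ifit1 (chr19:34640744-34640870, plus strand): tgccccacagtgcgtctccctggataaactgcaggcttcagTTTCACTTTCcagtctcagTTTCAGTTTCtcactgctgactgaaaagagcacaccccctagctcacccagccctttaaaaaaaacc
Ifit3 (chr19:34583279-34583528, plus strand): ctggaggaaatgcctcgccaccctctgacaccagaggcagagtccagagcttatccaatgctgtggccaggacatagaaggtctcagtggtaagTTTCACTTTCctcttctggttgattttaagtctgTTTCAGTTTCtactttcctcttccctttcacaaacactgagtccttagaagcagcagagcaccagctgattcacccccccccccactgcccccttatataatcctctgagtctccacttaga
B2m (chr2:122147437-122147685, plus strand): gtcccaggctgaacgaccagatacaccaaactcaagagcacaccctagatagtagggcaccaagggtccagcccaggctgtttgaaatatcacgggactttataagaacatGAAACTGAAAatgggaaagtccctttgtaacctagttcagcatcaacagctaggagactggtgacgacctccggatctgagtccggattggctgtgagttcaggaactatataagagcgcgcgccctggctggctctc

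The other matches stood in Stat2 at -222, Rsad2 at -120, Gbp2 at -59, Gbp3 at -45 and -39, H2-T23 at -124, Ddx58 at 3 and Ifih1 at 33, and in Bst2 at -130 and -124, the first of which overlaps a GAS match at -136. Further GAS letters stood in Irf1 at -90, Psmb8 at -97, Ifit2 at -241 and Ifi35 at 8. Psmb9 and Tap1 are read in opposite directions from starts 226 bases apart on chromosome 17, and their promoter windows shared 275 bases. The exons of Psmb9 (17:34181987-34187764) and Tap1 (17:34187553-34197225) overlap by 212 bases in GENCODE M21, and those of Psmb8 overlap Gm20496 on the opposite strand by 498 bases. Whether counting used the strand is not given in the sources used here, so reads in these overlaps could have gone to either gene or to neither. Of the 100-base words of Ifit3, 31.7% occur also in transcripts of other genes, foremost its paralog Ifit3b, and 14.8% of those of Tapbp occur in other genes, foremost the overlapping Gm19412, so the counts of both are less certain than those of the rest.

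Most of these genes were counted at low levels. The median of the mean level over 20 libraries was 6.14 CPM for the 27 members that passed the filter (more than 1 CPM in at least 5 libraries), 5.40 CPM for interferon genes and 10.6 CPM for antigen presentation genes, against 25.1 CPM for the 14192 genes that passed. Isg15, Mx1, Rsad2, Usp18 and Psmb9 did not pass in any comparison. Mx1, a GTPase that blocks influenza viruses, was counted between 0 and 7 times per library in control neocortex and between 0 and 3 times in control hippocampus. Isg15 was counted 5 to 18 times per library in control neocortex, at a median of 0.417 CPM, and 8 to 23 times in control hippocampus, at a median of 0.681 CPM.

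Compared per kilobase of merged exons, B2m stood far above the other members. Its level was 137 CPM per kilobase in control neocortex and 144 in control hippocampus. In control neocortex, Psmb10 followed with 12.2, then Stat2 with 7.83, H2-K1 with 6.55, Tapbp with 6.38 and Ifi27 with 6.23. In control hippocampus the order was Ifi27 with 12.1, Psmb10 with 10.8, H2-K1 with 7.63, Stat2 with 6.72 and Tapbp with 6.61. The class I heavy chains H2-K1 and H2-D1, the latter at 4.28 CPM per kilobase in control neocortex, were thus far below the light chain B2m. Psmb8 (0.371) and Psmb9 (0.110) were far below Psmb10 in control neocortex, and Mx1 was the lowest member, with 0.0545. These values depend on the length used, since merged exons join the exons of all transcripts of a gene. They held 860 bases for B2m, 2938 for H2-K1, 3381 for Psmb8 and 1705 for Psmb10. Without the length, the means in control neocortex were 117.5 CPM for B2m, 19.2 for H2-K1, 1.25 for Psmb8 and 20.8 for Psmb10.

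**Figure D1:**
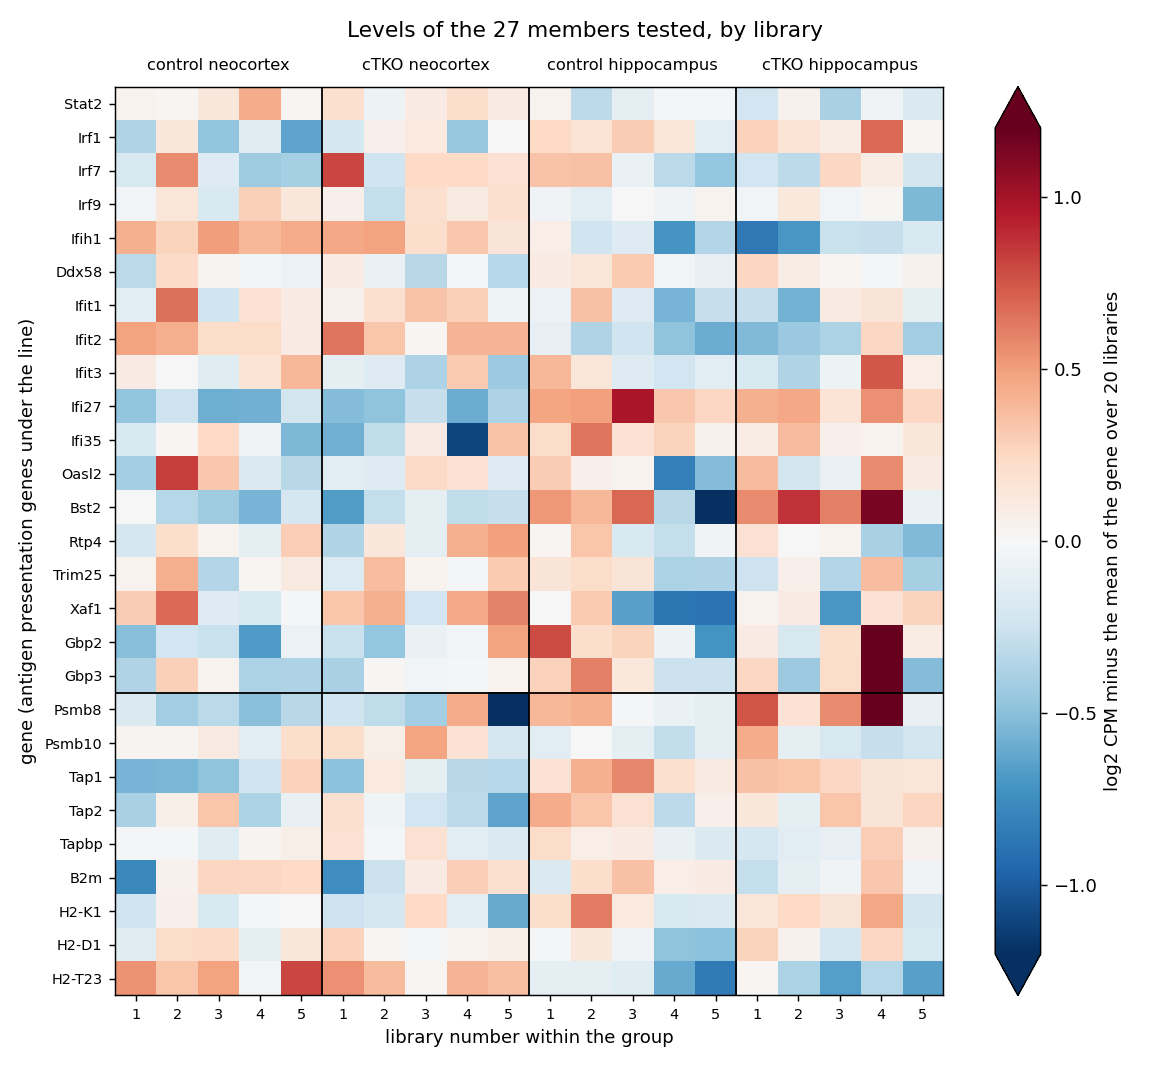
Levels of the 27 members tested in the 20 libraries, as log2 CPM minus the mean of the gene over all libraries (colour), with interferon genes above the horizontal line and antigen presentation genes below it. Library 4 of the cTKO hippocampus is red for Gbp2, Gbp3, Psmb8 and Bst2, and the regions differ in rows such as Ifi27, Ifih1, Ifit2 and H2-T23.

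The first question was whether these genes differ between cTKO mice and controls. In the neocortex, 0 of the 27 members tested were called at a false discovery rate (FDR) under 0.05 by edgeR's quasi-likelihood test, where 0.188% of the 13843 genes tested were called. None had an unadjusted p under 0.05, against 10.4% of all genes, and 0 members had genotypes that did not overlap, against 2.36% of all genes. The log2 fold changes lay between -0.24 and 0.40, with a median of 0.018 over the members and 0.009 over all genes, and 14 of 27 were above 0. Standard errors lay between 0.0864 and 0.296 with a median of 0.172, and FDR values between 0.634 and 0.992.

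The 95% intervals bound how far the neocortical levels could differ. All 27 intervals lay within a 2-fold change in either direction, and 21 of them within a 1.5-fold change. They were narrow for Tapbp (0.04, interval -0.14 to 0.23), Stat2 (-0.03, interval -0.22 to 0.17), Ifi27 (-0.03, interval -0.27 to 0.22) and H2-D1 (0.02, interval -0.21 to 0.25). Irf7, the factor that amplifies type I interferon production, had the largest estimate. It was at 1.68, 2.87, 1.65, 1.37 and 1.39 CPM in the 5 control libraries and at 3.43, 1.61, 2.27, 2.28 and 2.15 CPM in the cTKO libraries. The groups overlapped, since control 2 was above 4 of the 5 cTKO libraries. The log2 fold change was 0.40 (standard error 0.259, FDR 0.639). It rested on single libraries, with 0.63 (standard error 0.242, unadjusted p = 0.0223 and FDR 0.509 by edgeR) without control neocortex 2 and 0.21 (standard error 0.254, FDR 0.826) without cTKO neocortex 1. Gbp2, a GTPase induced by interferon gamma, had 0.32 (standard error 0.205, FDR 0.634), and Ifit3 had the lowest value with -0.24 (standard error 0.164, FDR 0.667).

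In the hippocampus, too, 0 of 27 members were called, where 0.489% of the 13702 genes tested were. None had an unadjusted p under 0.05, against 12% of all genes, and in 0 members did the genotypes not overlap, against 3.13% of all genes. The log2 fold changes lay between -0.18 and 0.61, with a median of -0.003 over the members and 0.0049 over all genes, and 12 of 27 were above 0. Of the 95% intervals, 25 lay within a 2-fold change and 20 within a 1.5-fold change. The intervals of Psmb8 and Bst2 were the widest at their upper end.

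Psmb8, the immunoproteasome counterpart of Psmb5, was at 2.21, 2.27, 1.63, 1.57 and 1.52 CPM in control hippocampus and at 2.87, 1.88, 2.52, 5.31 and 1.57 CPM in cTKO hippocampus. The value of cTKO library 4 stood above all others and that of cTKO library 5 lay among the controls. The log2 fold change was 0.61 (standard error 0.308, unadjusted p = 0.0689 and FDR 0.462 by edgeR, interval -0.05 to 1.28), and 0.26 (standard error 0.229, FDR 0.732) without cTKO library 4. Bst2, which tethers budding virions to the cell, was at 1.96, 1.80, 2.22, 1.05 and 0.523 CPM in controls and at 2.05, 2.54, 2.10, 3.06 and 1.27 CPM in cTKO mice. Its groups overlapped as well, and its log2 fold change was 0.53 (standard error 0.343, FDR 0.597, interval -0.21 to 1.28). The MHC class I genes differed by less: B2m by -0.14 (standard error 0.114, FDR 0.689), H2-K1 by 0.03 (standard error 0.158, FDR 0.978), H2-D1 by 0.21 (standard error 0.151, FDR 0.652) and H2-T23 by -0.05 (standard error 0.193, FDR 0.960).

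The 5 members under the filter were compared in a fit without a filter. None was called by edgeR in either region, with FDR values from 0.619 to 0.997 in the neocortex and from 0.545 to 0.950 in the hippocampus. The largest estimates were those of Psmb9, the immunoproteasome counterpart of Psmb6, with 0.78 in the neocortex (standard error 0.438) and of Rsad2, the antiviral enzyme viperin, with -0.52 in the hippocampus (standard error 0.277). Psmb9 had 1 to 9 counts per control library of the neocortex and 11 to 15 per cTKO library. Scaled to the library totals the genotypes overlapped, with 0.0652 to 0.658 CPM in controls and 0.542 to 0.815 CPM in cTKO mice.

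**Figure D2:**
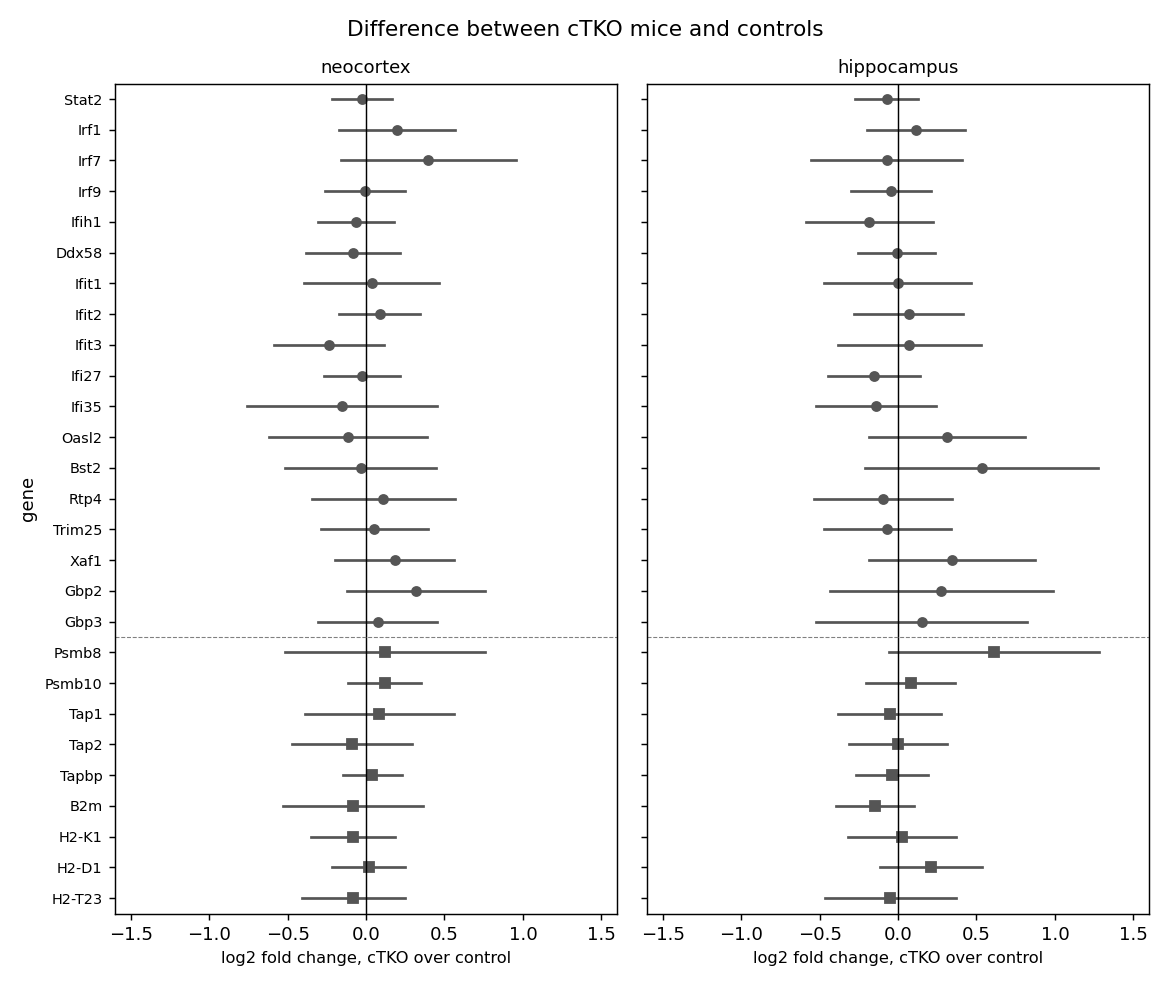
Log2 fold change of cTKO over control (x axis) for the 27 members tested (circles for interferon genes, squares for antigen presentation genes), with 95% intervals as bars, in the neocortex and the hippocampus. Every interval contains 0, and the largest estimates are 0.40 for Irf7 in the neocortex and 0.61 for Psmb8 in the hippocampus.

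Whether the genotypes differed more in 1 region than in the other was tested with the interaction of genotype and region over all 20 libraries. None of the 27 members was called by edgeR, nor did any have an unadjusted p under 0.05, where 0.0564% of 14192 genes were called and 3.75% had such a p. The largest estimates were 0.57 for Bst2 (standard error 0.431), 0.50 for Psmb8 (standard error 0.450) and -0.46 for Irf7 (standard error 0.346). Without both cTKO libraries that held embryonic globin transcripts, hippocampus 4 and neocortex 5, the estimate for Psmb8 was -0.04 (standard error 0.327). That for Irf7 was -0.70 (standard error 0.327) without control neocortex 2 and -0.29 (standard error 0.337) without cTKO neocortex 1. DESeq2 called 0 members in both regions and in the interaction as well.

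Other genes of the pathway, taken from lists of textbook members, were called in no case either when the genotypes were compared. Among the 46 further interferon-induced genes, 32 were tested in the neocortex and 31 in the hippocampus, and 4 and 2 of them had an unadjusted p under 0.05. Of 18 interferons, receptors and JAK-STAT genes, 9 were tested in each region, and their log2 fold changes ran from -0.07 to 0.07 in neocortex and from -0.21 to 0.19 in hippocampus. The interferons themselves did not pass the filter. The constitutive proteasome genes Psmb1 to Psmb7 were 7 of 7 above 0 in both regions, with medians of 0.138 and 0.144 on the log2 scale against 0.009 and 0.0049 for all genes, and 5 and 2 of them had an unadjusted p under 0.05, but 0 were called. Of the marker lists, 0 of 12 microglial and 0 of 10 endothelial genes were called in either region. The summed microglial markers ranged from 426 to 477 CPM in neocortex of controls and from 363 to 461 CPM in that of cTKO mice. In the hippocampus these sums ranged from 496 to 577 CPM and from 448 to 624 CPM. Of 6 choroid plexus markers tested there, 0 were above 0, with a median of -1.55 on the log2 scale. By edgeR, 4 of them had an unadjusted p under 0.05, but 0 were called. Their sums were 76.6 to 2712 CPM in control hippocampus and 113 to 599 CPM in cTKO hippocampus. Of 6 mural markers in the hippocampus, 2 had such a p and 0 were called. The part of these cells in the levels of the members was not tested. Lymphocyte markers were in sum at 9.38 to 13.3 CPM in control neocortex and at 8.58 to 15.03 CPM in cTKO neocortex. In the hippocampus they were at 3.24 to 4.95 CPM in controls and at 2.98 to 6.89 CPM in cTKO mice. Cd3e and Cd8a, which define T cells, were at most at 0.318 and 0.100 CPM.

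The second question was whether the levels differ between the regions. Libraries were taken as independent in the main fits, without a block by library number. In controls, 8 of 27 members were called (29.6%), where 59.1% of 13832 genes were called. Of these, 4 were higher in the hippocampus (all genes 29.8%) and 4 were lower (all genes 29.2%), and 5 had regions that did not overlap (18.5%, all genes 44.2%). In cTKO mice, 8 of 27 were called as well, where 41.3% of 13846 genes were called, with 4 higher (all genes 20.2%), 4 lower (all genes 21.1%) and 4 not overlapping (14.8%, all genes 28.8%). The share of members called was thus below that of all genes in both genotypes. Members had larger errors, with a median standard error of 0.161 against 0.0817 for all genes in controls, besides their lower levels. Ifi27, Tap1 and Psmb8 were higher and H2-T23, Ifih1, Ifit2 and Stat2 lower in the hippocampus of both genotypes, which makes 7 of 27 members called in both (25.9%), against 38.7% of the 13703 genes tested in both. Of the cTKO libraries, hippocampus 4 and neocortex 5 held embryonic globin transcripts, and without both of them 6 members were called in cTKO mice, with Psmb8 at 0.50 (standard error 0.276, FDR 0.178) and Tap1 at 0.48 (standard error 0.195, FDR 0.0723) no longer among them.

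**Figure D3:**
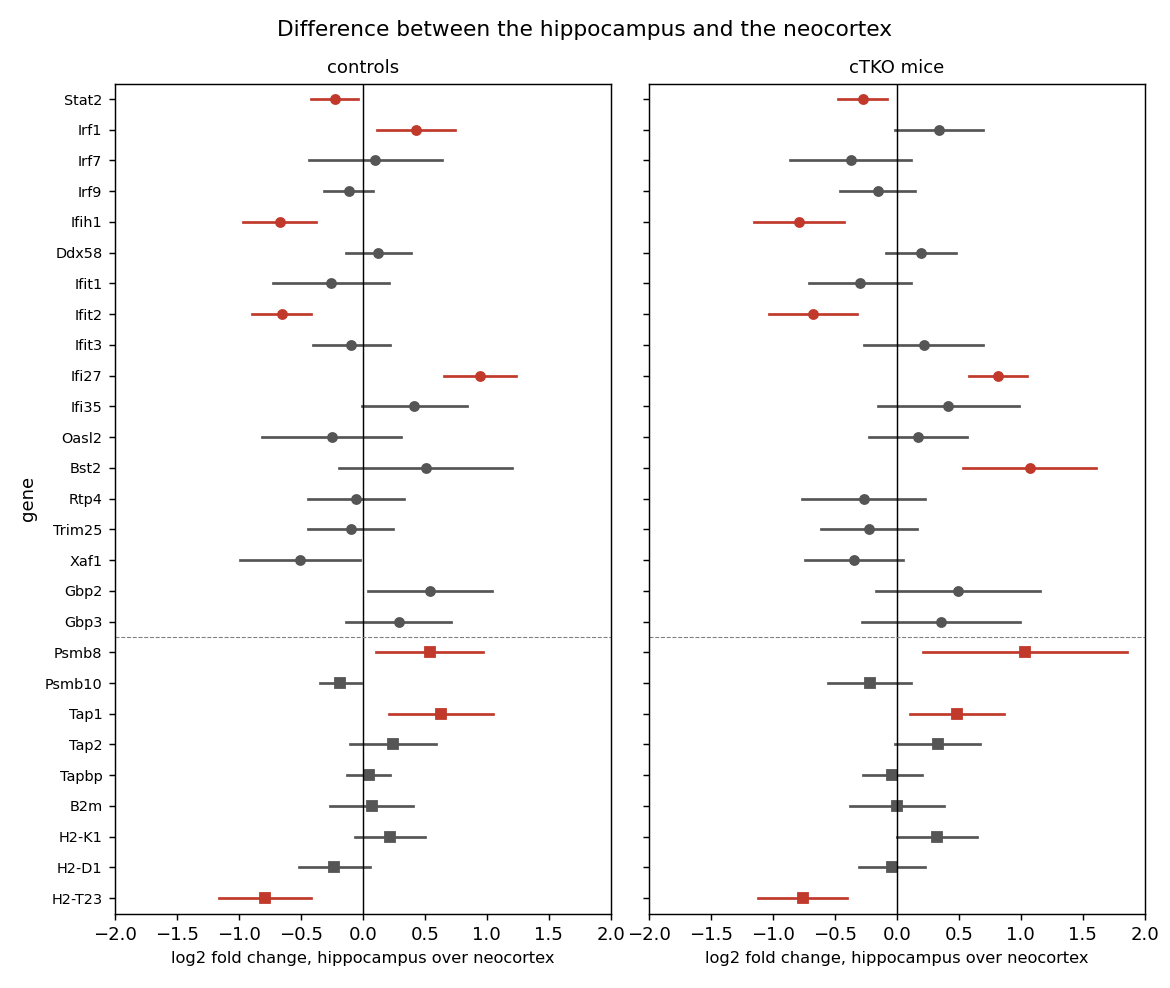
Log2 fold change of the hippocampus over the neocortex (x axis) for the 27 members tested (circles for interferon genes, squares for antigen presentation genes), with 95% intervals as bars, in controls and in cTKO mice. Members with an FDR under 0.05 are in red, 8 in each panel, and 7 of these are the same genes.

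Ifi27, a small membrane protein induced by type I interferons, had the clearest difference. It was at 8.78, 10.3, 8.06, 8.15 and 10.4 CPM in control neocortex and at 17.1, 17.2, 24.2, 15.3 and 14.5 CPM in control hippocampus. In cTKO mice it was at 8.49, 8.71, 10.1, 8.06 and 9.40 CPM in the neocortex and at 16.4, 16.9, 13.7, 17.9 and 14.6 CPM in the hippocampus. Every hippocampal library lay above every neocortical library, which are 9.14 ± 1.14 against 17.7 ± 3.84 CPM (SD, n = 5) in controls. Hippocampus over neocortex, the log2 fold change was 0.95 in controls (standard error 0.136, FDR 2.45e-05) and 0.81 in cTKO mice (standard error 0.108, FDR 8.32e-05). Control hippocampus 3, the highest library, also held 2712 CPM of choroid plexus markers, against 76.6 to 494 CPM in the other control hippocampi and at most 17.4 CPM in the neocortex. Without that library the log2 fold change in controls was 0.81 (standard error 0.103, FDR 1.2e-05).

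Tap1, a subunit of the peptide transporter, was at 1.64, 1.61, 1.65, 2.02 and 2.92 CPM in control neocortex and at 2.76, 3.31, 3.68, 2.80 and 2.62 CPM in control hippocampus. Control neocortex 5 was the one neocortical library that reached the hippocampal range. In cTKO mice, Tap1 was at 1.72, 2.64, 2.20, 1.91 and 1.85 CPM in the neocortex and 3.16, 3.11, 2.93, 2.73 and 2.71 CPM in the hippocampus, without overlap. The fitted log2 fold change was 0.63 in controls (standard error 0.197, FDR 0.0121) and 0.49 in cTKO mice (standard error 0.176, FDR 0.0417). The call in cTKO mice was weak, since it held in 5 of 18 alternative analyses, with FDR values up to 0.0970, and it was lost without any of 9 of the 10 libraries.

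Psmb8 was at 1.48, 1.20, 1.23, 1.11 and 1.25 CPM in control neocortex, below each of the control hippocampi given above. In cTKO neocortex it was at 1.40, 1.32, 1.20, 2.28 and 0.518 CPM, and library 4 there overlapped the hippocampal range. Hippocampus over neocortex, the log2 fold change was 0.54 in controls (standard error 0.201, FDR 0.0315) and 1.03 in cTKO mice (standard error 0.379, FDR 0.0445). Both calls depended on single libraries: FDR values reached 0.167 over 17 alternatives in controls and 0.178 over 18 in cTKO mice, and 9 of each kept the call. In cTKO mice the log2 fold change was 0.68 (standard error 0.330, FDR 0.120) without cTKO hippocampus 4. Psmb9, under the filter, was at 0.369, 0.358, 0.658, 0.0652 and 0.556 CPM in control neocortex and at 0.904, 0.859, 1.27, 1.09 and 0.941 CPM in control hippocampus. These do not overlap, and the fit without a filter gave 1.38 in controls (standard error 0.366, FDR 0.00443) and 0.41 in cTKO mice (standard error 0.304, FDR 0.353). Psmb10, the counterpart of Psmb7, did not share this direction, with -0.18 in controls (standard error 0.0790, FDR 0.0615) and -0.22 in cTKO mice (standard error 0.154, FDR 0.276).

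Irf1 and Bst2 were called in 1 genotype each. Irf1, the transcription factor induced by interferon gamma, was at 4.63, 6.51, 4.20, 5.34 and 3.75 CPM in control neocortex and at 7.03, 6.70, 7.35, 6.61 and 5.39 CPM in control hippocampus. All hippocampal libraries but library 5 were above all neocortical ones. The fitted log2 fold change was 0.43 in controls (standard error 0.147, FDR 0.0211), where the call was lost without control neocortex 3 or 5 (FDR up to 0.0578), and 0.34 in cTKO mice (standard error 0.164, FDR 0.116). For Bst2, cTKO neocortex held 0.812, 1.08, 1.20, 1.06 and 1.04 CPM, below every cTKO hippocampus, and control neocortex held 1.35, 1.01, 0.905, 0.847 and 1.11 CPM, where control hippocampus 4 lay within this range and control hippocampus 5 below it. Its log2 fold change was 1.07 in cTKO mice (standard error 0.248, FDR 0.00415) and 0.51 in controls (standard error 0.328, FDR 0.198). That both were called in a single genotype does not show a difference between genotypes, and the interaction was not called for either (-0.07, standard error 0.222, for Irf1).

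Of the members lower in the hippocampus, Ifih1, the sensor of long double-stranded RNA known as MDA5, was at 6.72, 5.97, 6.995, 6.52 and 6.74 CPM in control neocortex and at 5.22, 4.21, 4.45, 3.00 and 3.87 CPM in control hippocampus. In cTKO mice it was at 6.86, 6.95, 5.73, 6.20 and 5.48 CPM against 2.71, 3.02, 4.12, 4.06 and 4.36 CPM. The regions did not overlap in either genotype, and the log2 fold change was -0.67 in controls (standard error 0.138, FDR 0.000658) and -0.79 in cTKO mice (standard error 0.167, FDR 0.00232). Ddx58 (RIG-I), which senses short RNA with a triphosphate end and is a relative of Ifih1, was not called, with 0.12 (standard error 0.123, FDR 0.404) and 0.20 (standard error 0.131, FDR 0.257).

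Ifit2 was at 13.8, 13.3, 11.4, 11.5 and 10.5 CPM in control neocortex and at 9.19, 7.64, 8.35, 7.04 and 6.48 CPM in control hippocampus, without overlap. In cTKO mice it was at 15.4, 12.4, 10.005, 13.1 and 13.03 CPM against 6.81, 7.22, 7.55, 11.7 and 7.37 CPM, and cTKO hippocampus 4 alone reached the neocortical range. The log2 fold change was -0.65 in controls (standard error 0.112, FDR 0.000131) and -0.68 in cTKO mice (standard error 0.164, FDR 0.00544), and -0.84 (standard error 0.132, FDR 0.000392) without cTKO hippocampus 4. Its neighbours on chromosome 19 in the same gene family were not called: Ifit1 had -0.26 in controls (standard error 0.220, FDR 0.331) and -0.30 in cTKO mice (standard error 0.190, FDR 0.230), and Ifit3 had -0.09 (standard error 0.146, FDR 0.607) and 0.21 (standard error 0.221, FDR 0.471).

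H2-T23, a nonclassical class I heavy chain known as Qa-1, was at 8.53, 7.35, 8.15, 5.67 and 10.2 CPM in control neocortex and at 5.43, 5.41, 5.27, 3.80 and 3.19 CPM in control hippocampus. In cTKO mice it was at 8.58, 7.64, 5.92, 7.79 and 7.48 CPM against 5.95, 4.47, 3.67, 4.59 and 3.69 CPM. The regions did not overlap in controls, and in cTKO mice they met at neocortex 3 and hippocampus 1. Hippocampus over neocortex, the log2 fold change was -0.79 in controls (standard error 0.175, FDR 0.00119) and -0.76 in cTKO mice (standard error 0.166, FDR 0.00288). Of the classical class I genes, H2-K1 had 0.22 in controls (standard error 0.133, FDR 0.172) and 0.32 in cTKO mice (standard error 0.148, FDR 0.0993), H2-D1 had -0.23 (standard error 0.135, FDR 0.159) and -0.04 (standard error 0.123, FDR 0.807), and B2m had 0.07 (standard error 0.157, FDR 0.716) and 0.00 (standard error 0.174, FDR 0.998). The 4 class I genes had no common direction between the regions. Of the 100-base words of H2-T23, 3.15% are shared with other genes, H2-T22 and H2-Q1 among them.

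Stat2, the member of the interferon-activated complex with the highest level here, differed least among those called. It was at 46.4 ± 6.23 CPM in control neocortex and 39.8 ± 3.73 CPM in control hippocampus, and at 45.4 ± 3.25 and 37.9 ± 4.40 CPM in cTKO mice (SD, n = 5). The fitted log2 fold change was -0.23 in controls (standard error 0.0892, FDR 0.0399) and -0.28 in cTKO mice (standard error 0.0908, FDR 0.0269). The controls' call held in 11 of 17 alternatives (FDR up to 0.116; lost without control neocortex 3 or 4 and without control hippocampus 2 or 3) and that of cTKO mice in 13 of 18 (FDR up to 0.0710; lost without cTKO neocortex 1 or 4 and without cTKO hippocampus 1, 3 or 5). Irf9, its partner, was not called, with -0.12 (standard error 0.0935, FDR 0.305) and -0.16 (standard error 0.140, FDR 0.404).

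**Figure D4:**
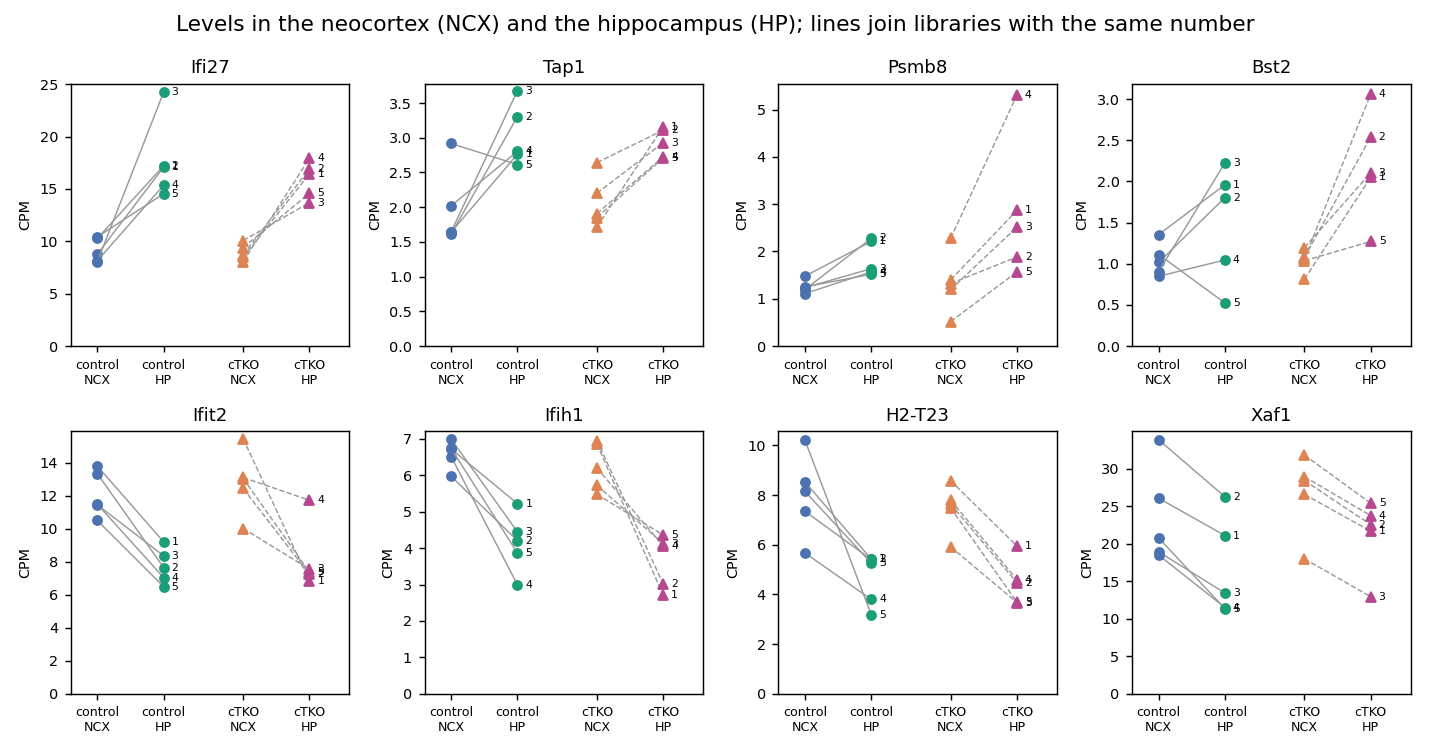
CPM of 8 members (y axes) in single libraries from neocortex (NCX) and hippocampus (HP) of controls (circles, solid lines) and cTKO mice (triangles, dashed lines), with lines between libraries of the same number. Ifi27 rises and Ifih1, Ifit2, H2-T23 and Xaf1 fall along all 10 lines.

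Xaf1, an antagonist of the apoptosis inhibitor XIAP that interferon induces, differed between libraries more than between regions. In controls it was at 26.1, 33.9, 18.9, 18.5 and 20.8 CPM in neocortex 1 to 5 and at 21.1, 26.3, 13.4, 11.5 and 11.3 CPM in hippocampus 1 to 5. In cTKO mice it was at 26.6, 28.4, 18.0, 28.9 and 31.8 CPM in the neocortex and at 21.7, 22.6, 12.9, 23.8 and 25.4 CPM in the hippocampus. Controls 1 and 2 were the highest of their group and cTKO 3 the lowest in both regions, and the hippocampus was below the neocortex of the same number in 10 of 10 cases, with log2 differences from -0.869 to -0.284.

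With libraries taken as independent, Xaf1 was not called, with -0.51 in controls (standard error 0.227, FDR 0.0676) and -0.35 in cTKO mice (standard error 0.182, FDR 0.146). In controls, libraries with the same number in both regions deviated together, and with the number as a block 10 of 27 members were called (37%), 4 higher and 6 lower, where 61.4% of all genes were called with the same block. The block added Xaf1, at -0.53 (standard error 0.0882, FDR 0.000123), and Psmb10, at -0.18 (standard error 0.0716, FDR 0.0421), and kept the 8 others. With the same block in cTKO mice, whose numbers did not pass the check of pairing, Xaf1 had -0.36 (standard error 0.0763, FDR 0.00477).

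B2m also differed by library number. Library 1 was the lowest of its 5 in every group, with 66.3 CPM in control neocortex, 67.8 CPM in cTKO neocortex, 101 CPM in control hippocampus and 93.0 CPM in cTKO hippocampus. The other libraries lay between 94.8 and 144 CPM. The labels do not say that the numbers of the 2 genotypes are related, so this order is given as values. Deviations from group means correlated between same-numbered control and cTKO libraries at 0 to 0.221 in the neocortex. There, 4 of 5 control libraries correlated best with the same number. In the hippocampus the correlations were -0.135 to 0.141, and 1 of 5 correlated best with the same number. The genotypes differed in B2m by -0.08 in the neocortex (standard error 0.207, FDR 0.930), and the interval reached from -0.53 to 0.36. With the number as a block the estimate was -0.08 with a smaller standard error (0.0679, FDR 0.715). In the hippocampus the block gave -0.15 (standard error 0.0923, FDR 0.625).

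Members were not at their highest in each library equally often. In cTKO hippocampus 4, 14 of 27 members (51.9%) were at the highest level of their group, where 22.1% of all genes were. Among these were Gbp2 with 10.2 CPM against 3.28 to 4.37 CPM in the other cTKO hippocampi, Gbp3 with 9.90 against 2.92 to 5.04 CPM, and Ifit3 with 9.32 against 4.29 to 5.84 CPM, besides Psmb8, Ifit2, Bst2 and Irf1. This library was also the highest of its group in microglial markers (624 against 448 to 573 CPM) and astrocyte markers (5645 against 2834 to 4454 CPM). The same held for endothelial (304 against 213 to 274 CPM), mural (213 against 154 to 187 CPM) and lymphocyte markers (6.9 against 2.98 to 4.11 CPM). It was the lowest in markers of excitatory neurons (9471 against 11040 to 11690 CPM) and oligodendrocytes (4024 against 4582 to 6915 CPM). It held 189 CPM of the embryonic globins Hba-x, Hbb-y and Hbb-bh1. The other library with these globins, cTKO neocortex 5, held 291 CPM, and the remaining 18 held at most 1.32 CPM. In cTKO neocortex 5, 5 of 27 members were at their highest (18.5%, all genes 22.9%). The part of these cells and globins in the levels was not tested. Without cTKO hippocampus 4, the median log2 fold change between genotypes in the hippocampus was -0.0711, 7 of 27 members were above 0 and 0 were called.

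In controls, library 2 was at the highest level of its group for 9 of 27 members in the neocortex (33.3%, all genes 15.8%), 8 of them interferon genes, and for 11 of 27 in the hippocampus (40.7%, all genes 18.5%). Oasl2 was at 7.35 CPM in control neocortex 2 against 3.08 to 5.10 CPM in the other control neocortices, Irf7 at 2.87 against 1.37 to 1.68 CPM, and Ifit1 at 3.88 against 1.98 to 2.74 CPM. In control hippocampus 2, Oasl2 was at 4.29 CPM within a range of 2.28 to 5.07 CPM. Control hippocampus 4 was at the highest level for 0 of 27 members, where 14.6% of all genes were.

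**Figure D5:**
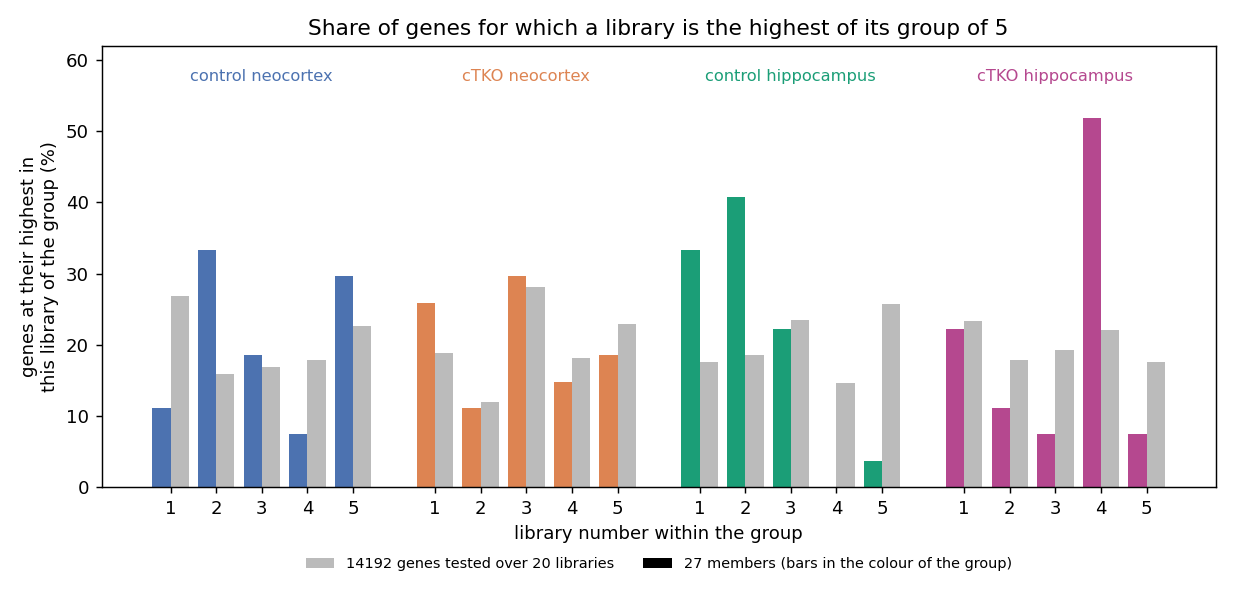
Share of the 27 members tested (coloured bars) and of all 14192 genes tested (grey bars) for which a library was the highest of its group of 5, in percent. The tallest coloured bar is cTKO hippocampus 4, with 51.9% against 22.1%, followed by control hippocampus 2 with 40.7% against 18.5%.

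Other genes of the pathway also differed between the regions in both directions. Of 32 further interferon-induced genes tested in each genotype, 5 were higher and 7 lower in the hippocampus of controls, and 2 were higher and 7 lower in cTKO mice. These are 37.5% and 28.1% of the genes tested, below the 59.1% and 41.3% of all genes. Herc6, an ISG15 ligase, had -1.74 in controls (standard error 0.105, FDR 2.48e-09) and -1.99 in cTKO mice (standard error 0.163, FDR 1.60e-06), and the GTPase Iigp1 had 1.04 (standard error 0.183, FDR 0.000167) and 1.06 (standard error 0.354, FDR 0.0295). Pml and Adar, which edits double-stranded RNA, were lower in both genotypes, with -0.53 and -0.45 in controls. Among 9 receptors and kinases tested, Ifngr2, a chain of the interferon gamma receptor, was higher with 0.76 in controls (standard error 0.0613, FDR 5.80e-08) and 0.79 in cTKO mice (standard error 0.0661, FDR 1.86e-06). Jak2, the kinase bound to it, was lower with -0.50 in controls (standard error 0.0476, FDR 4.06e-07) and -0.39 in cTKO mice (standard error 0.0858, FDR 0.00286). The brakes Ptpn2 and Socs3 were lower in both genotypes, 2 of 7 tested, with -0.66 and -1.72 in controls.

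The constitutive proteasome genes Psmb1 to Psmb7 were higher in the hippocampus in 7 of 7 cases in both genotypes. Their median log2 fold change was 0.527 for controls, where that of all genes was 0.0119, and 0.476 for cTKO mice. The proteasome activators Psme1 and Psme2 were higher as well, with 0.51 (standard error 0.0798, FDR 5.74e-05) and 0.53 (standard error 0.0995, FDR 0.000322) in controls. In controls, Psmb8 and Psmb9 shared the direction of the constitutive subunits, and Psmb10 was at -0.18.

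Markers of other cells were compared between the regions as well. Of all genes, 59.1% were called in controls (29.8% higher and 29.2% lower in the hippocampus). In cTKO mice 41.3% were called (20.2% higher and 21.1% lower). Microglial markers were higher in the hippocampus for 6 of 12 genes and lower for 1 in controls (58.3% called). In cTKO mice they were higher for 5 and lower for 0 (41.7%). The shares called were close to those of all genes, but the calls were mainly in the direction of the hippocampus. In each genotype 10 of 12 microglial markers were above 0, with a median log2 fold change of 0.243. Endothelial markers were lower for 5 of 10 genes in controls and 6 of 10 in cTKO mice, and higher for 0, at 322 to 370 CPM in sum in control neocortex and 262 to 352 CPM in control hippocampus. Astrocyte markers were higher for 6 of 7 genes in controls and 5 of 7 in cTKO mice, and choroid plexus markers for 5 of 5 tested in both. Of 2 lymphocyte markers tested, 1 was lower in the hippocampus, at -3.93 in controls and -4.55 in cTKO mice, and 0 were higher. The summed lymphocyte markers of the regions did not overlap in either genotype. The part of these cells in the levels of the 32 genes was not tested.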

How the data were processed

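Poly-A RNA of 20 samples was sequenced as single-end reads. The authors aligned the reads to mm10 with STAR 2.5.4a and counted them per gene with HTSeq (version not given in the sources used here), and the deposited values are raw counts per gene and library. Samples were grouped by genotype and region from the labels.

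Counts were fitted with edgeR 4.0.16 in R 4.3.3 by its quasi-likelihood test, with TMM scaling and Benjamini-Hochberg adjustment over all genes with more than 1 CPM in at least 5 libraries of a fit. The 10 libraries of each comparison formed a fit, and all 20 were used for the interaction. A call is an FDR under 0.05. Levels are CPM on TMM-scaled library sizes, and log2 CPM used a prior count of 2. The scripts were tested on simulated data. The p-values measure the spread between these libraries.

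All 32 members are named, and of each other pathway list at most the 6 called genes with the smallest FDR. The members and lists were chosen with earlier results of these data known. Positions and exon lengths are those of GENCODE M21 (GRCm38).

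Both regions were taken from 5 mice of a genotype, but the labels do not state that a number marks a mouse. Deviations from group means correlated between same-numbered libraries of the regions at 0.123 to 0.353 in controls. The main fits took libraries as independent in both genotypes, and the number was used as a block only in further fits. In cTKO mice the correlation was -0.073 to 0.394, and it reached 0.579 between libraries of different numbers. Only 3 of 5 neocortical libraries there correlated best with the same number. Not every number passed, and the block is an alternative in cTKO mice as in controls. The libraries high in Xist had the same numbers in both regions of each genotype.

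Alternatives were DESeq2 1.42.0, its size factors, other filters, all 20 libraries in 1 fit, Xist as a covariate, the block and each library left out. Leaving out both cTKO libraries with embryonic globin was added after seeing the data. Intervals cover the spread between libraries, and the value of 3 counts covers counting error alone.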

Additional observations from a re-analysis of the deposited data

Results flagged for a closer look

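In 12 of 128 groups of 5 libraries (9.38%), the highest or lowest library of a gene stood apart from the other 4 by Dixon's ratio (critical value 0.71). This value gives about 1 in 20 for independent, normally distributed values. The groups share libraries and include genes with few counts, so an excess cannot be read from the share. In the hippocampus of cTKO mice, library 4 stood apart at 11.7 CPM for Ifit2 and at 10.2 CPM for Gbp2, library 1 at 27.3 CPM for Psmb10, library 2 at 2.28 CPM for Ifi35, and library 5 was low for Irf9 at 7.54 CPM. In control hippocampus, library 3 was high for Ifi27 at 24.2 CPM. In control neocortex, Stat2 was high in library 4 at 57.3 CPM, Irf7 in library 2 at 2.87 CPM and Isg15 in library 3 at 1.48 CPM, and B2m was low in library 1 at 66.3 CPM. In cTKO neocortex, library 1 was low for Gbp3 at 3.2 CPM and high for H2-D1 at 12.7 CPM. For none of the 27 members tested was the effect of genotype called as different between the regions.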

How the results depend on the processing

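No member was called between genotypes or in the interaction under any alternative. With 1 library left out, the members called between the regions numbered 5 to 10 in controls (5 without control neocortex 3) and 5 to 8 in cTKO mice (5 without cTKO hippocampus 3), against 8 in each. H2-T23, Ifi27, Ifih1, Ifit2 and Tap1 in controls and Bst2, H2-T23, Ifi27, Ifih1 and Ifit2 in cTKO mice were called under every alternative. The replicate block called 10 members in controls. In cTKO mice, where not every number passed the check of pairing, it called 9, adding Xaf1 (-0.36, FDR 0.00477 by edgeR) and H2-K1 (0.33, FDR 0.0321) and losing Tap1 (FDR 0.0616), and it changed no call between genotypes. Bst2 and Gbp2 were gained in controls without control hippocampus 5. Of all genes, 26 were called between genotypes in the neocortex, 221 by DESeq2, 42 without a filter, 12 with the block and 7 to 133 with 1 library left out. In the hippocampus 67 were called, 331 by DESeq2, 189 in the fit of all 20 libraries and 15 to 149 with 1 library left out. The interaction called 8, DESeq2 26, the block 18, and 5 to 20 with 1 library left out. Of 2592 member values under the alternatives, 146 changed sign, none of them called. The causes of these changes were not tested.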
